A study of Homo sapiens with 36 samples.

Results

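The genes described here are 10 structural noncoding RNA genes: RMRP, RPPH1, RN7SK, RN7SL1, RN7SL2, RNU11, RNU12, RNU4ATAC, RNU6ATAC and TERC. They were chosen by name for their roles, with earlier results of these data known, from 58219 gene records in the RNA tables and 43582 in the footprint tables. The 10 symbols matched 11 records, and 17 records lay on the 10 loci. WiT49, an established cell line from an anaplastic Wilms tumor (a childhood kidney cancer), was exposed to 2 nM of actinomycin D (actD), and control cultures to dimethyl sulfoxide (DMSO), the vehicle. Exposure lasted 6 h, 72 h or 2 weeks, where the 2 weeks were 2 cycles of 7 days, each 3 days in drug (or DMSO) followed by 4 days in medium alone. Total RNA and ribosome footprints were sequenced in 3 libraries per group, 36 libraries in all. Every library, drug or vehicle, came from this 1 line in culture, and nothing in the labels says that replicates were separate cultures, so p-values measure the spread between these libraries, which may be technical. At 2 weeks the titles of the RNA libraries and the names in their count table give opposite treatments, so groups of that table follow its column names and are written named actd and named dmso.

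These RNAs work as parts of ribonucleoprotein machines and are not translated. RPPH1 is the RNA of RNase P, which trims the front end of transfer RNA precursors, and RMRP is the RNA of RNase MRP, which cuts precursor ribosomal RNA. RN7SK holds the kinase P-TEFb inactive until transcription needs it, and RN7SL1 and RN7SL2 encode the RNA scaffold of the signal recognition particle, which docks ribosomes at the endoplasmic reticulum. RNU11, RNU12, RNU4ATAC and RNU6ATAC are the RNAs that set the minor spliceosome apart, the machine that removes a rare class of introns. TERC carries the template from which telomerase adds telomere repeats. RMRP, RPPH1, RN7SK, RN7SL1, RN7SL2 and RNU6ATAC are made by RNA polymerase III, and RNU11, RNU12, RNU4ATAC and TERC by RNA polymerase II. ActD binds DNA and blocks transcription, that of ribosomal RNA by RNA polymerase I at the lowest doses.

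The sequences of the minor spliceosome RNAs are shown because RNU11 and RNU12 are the members whose counts moved most between records, and the sites by which all of them work can be seen in the letters. They were read from GENCODE release 29 transcripts (GRCh38), 5′ to 3′, with T for U. In the first 3, capitals mark the last run of A, then 4 to 6 T, then G, the form of site on which the Sm protein ring assembles. Of 1900 transcripts typed snRNA in that release, 233 (12.3%) hold such a run on their own strand. In RNU6ATAC, capitals mark the longest match to the reverse complement of the minor-class donor consensus ATATCCTTT.
RNU11: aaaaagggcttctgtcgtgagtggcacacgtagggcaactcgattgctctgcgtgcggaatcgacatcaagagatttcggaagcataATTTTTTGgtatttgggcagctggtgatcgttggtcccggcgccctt
RNU12: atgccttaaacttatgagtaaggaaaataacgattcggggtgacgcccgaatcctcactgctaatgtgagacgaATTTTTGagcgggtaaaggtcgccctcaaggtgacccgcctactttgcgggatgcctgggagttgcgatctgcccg
RNU4ATAC: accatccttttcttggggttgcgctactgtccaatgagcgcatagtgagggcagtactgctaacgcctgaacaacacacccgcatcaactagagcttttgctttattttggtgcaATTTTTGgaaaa
RNU6ATAC: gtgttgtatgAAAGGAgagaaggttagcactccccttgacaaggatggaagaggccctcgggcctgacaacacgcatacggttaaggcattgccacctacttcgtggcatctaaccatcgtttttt
RNU11 is a gene of 134 bases at chr1:28648600-28648733 on the plus strand, and RNU12 one of 150 bases at chr22:42615244-42615393, also on the plus strand. RNU4ATAC has 127 bases, at chr2:121530881-121531007 on the plus strand, opposite CLASP1. RNU6ATAC has 126 bases, at chr9:134164439-134164564 on the minus strand. The Sm-type run lies at bases 88 to 95 of RNU11, 75 to 81 of RNU12 and 116 to 122 of RNU4ATAC. RNU6ATAC, an RNA polymerase III product, has AAAGGA at bases 11 to 16 near its 5′ end. RNU12 holds TAAGGAA at bases 19 to 25, the longest match to the reverse complement of the minor-class branch site consensus TTCCTTAAC.

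RN7SL1 lies at chr14:49586580-49586878 on the plus strand, opposite RPS29, and RN7SL2 at chr14:49862550-49862849 on the minus strand. Of 300 aligned positions in the pair 295 were identical (98.3%). The counts of one gene therefore cannot be told apart from those of the other with certainty. For TERC, a gene of 541 bases at chr3:169764520-169765060 on the minus strand, bases 1 to 101 are shown because they hold the telomerase template. Capitals mark the longest match to tandem CCCTAA, at bases 46 to 56.
TERC: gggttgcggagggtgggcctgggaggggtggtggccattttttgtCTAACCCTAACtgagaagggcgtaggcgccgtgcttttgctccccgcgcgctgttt

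The RNA libraries held 40221994 to 69240041 counts and the footprint libraries 152556 to 1281039. The share of RNA counts on the 10 loci was 11.7% to 14.5% in the 6 h table. It was 5.21% to 8.74% after 72 h, and 10.7% to 13.1% after 2 weeks. Among footprints the shares were 1.55% to 7.05%, then 1.24% to 3.92%, then 3.32% to 5.4%. Markers of the line's tumor type ranged widely: IGF2, a fetal growth factor, lay between 1020 and 2359 CPM (library-size scaled counts) and the oncofetal RNA-binding protein LIN28B between 124 and 430, whereas SIX2, a nephron progenitor factor, did not exceed 0.541. The leukocyte marker PTPRC did not exceed 0.42 CPM. Tables of different times and assays were deposited apart, so levels set across them are descriptions and tests were made within a table. In bulk samples, fewer cells of a type and less RNA per cell cannot be told apart.

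The first result concerns where the counts of these genes stand in the tables. For 7 of the 10 genes the annotation holds a second record on the same strand over the same bases, and counts moved between the records from library to library. RNU12 shared its locus with Z93241.1, which covers all of it. In the 6 RNA libraries at 6 h the RNU12 record held 0, 0 and 552 counts with DMSO and 0, 0 and 581 with actD, while Z93241.1 held 1170, 1063 and 381 with DMSO and 1028, 853 and 386 with actD. The locus thus held 853 to 1170 counts in the 4 libraries with an empty record and 933 and 967 in the other 2. Over all libraries the RNU12 record was at 0 in 11 of 18 RNA libraries and in 11 of 18 footprint libraries. In footprints at 2 weeks it held 53649 counts in DMSO replicate 2 and 0 in the other 5 libraries, in which Z93241.1 held 17388 to 36585.

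RNU11 shared its locus with AL360012.1, which covers 97.8% of it. At 6 h the RNU11 record held 21, 755 and 16 counts with DMSO and 608, 630 and 637 with actD. The other record held 786, 0 and 629 counts with DMSO and 0 in each actD library. At 2 weeks the RNU11 record held 9, 12 and 12 counts in the libraries named actd and 736, 6 and 925 in those named dmso, with 656, 1054 and 1027 and then 0, 816 and 0 under AL360012.1. Only 7 of 18 RNA libraries had most of the locus' counts under RNU11, against 18 of 18 footprint libraries.

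TERC was nearly empty under its own name. RF00024, a record that covers 81.0% of TERC, held between 2249 and 4552 counts at 6 h while the TERC record held 6 to 18. The exception was actD replicate 3 at 72 h, where 475 counts stood under TERC and 496 under RF00024. RN7SK, RPPH1 and RN7SL1 were whole under their own names in most libraries, but at 72 h RN7SK split in 4 of 6 libraries, with 455033 of its counts under RF00100 in actD replicate 2. In that library 233175 RPPH1 counts stood under AL355075.4, and in DMSO replicate 2 at 72 h AL139099.4 held 238498 counts against 132085 under RN7SL1. RMRP was listed under 2 identifiers, of which the second held at most 36 counts in any library.

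**Figure D1:**
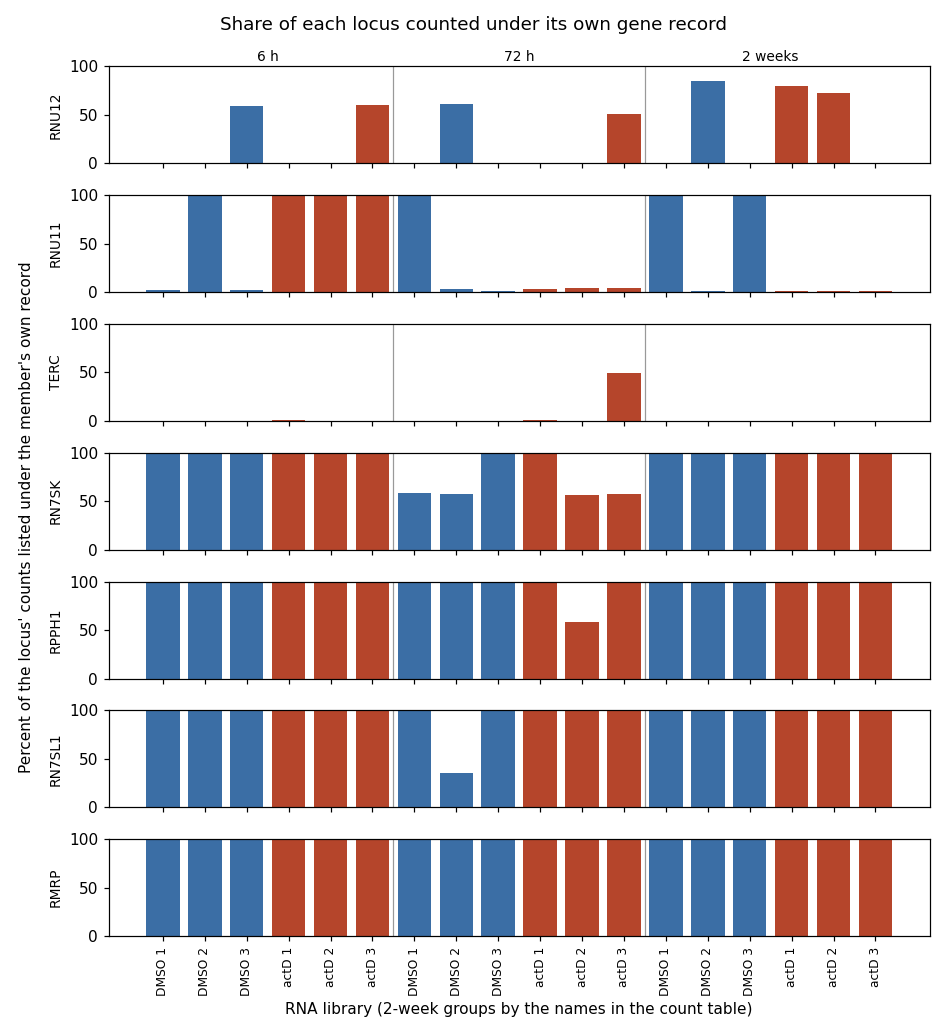
Percent of each locus' counts that stood under the gene's own record (y axis) in the 18 RNA libraries (x axis, DMSO blue, actD red, 2-week groups by the names in the table), for the 7 genes with a second record. RNU12 is at 0 in 11 libraries, RNU11 is near full in 7 and near empty in the other 11, and TERC reaches 48.9% in 1 actD library at 72 h.

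Summing the records of a locus reduced the spread between replicates of RNU12, RNU11 and TERC. Over the 6 RNA groups the median coefficient of variation (SD over mean) of RNU12 was 173% by record and 22.5% by locus. The corresponding values were 56.9% and 13.8% for RNU11 and 42.7% and 11.7% for TERC, whose own record was nearly empty in most libraries. For RPPH1 they were 20.6% and 16.5%. For RMRP the median was 17.9% by either count. RN7SL2, RNU6ATAC and RNU4ATAC have 1 record each. The values that follow are for the summed loci, a choice made after the moving counts were seen, and values by record are given for some of them only. The records that differed from their locus include RPPH1 in RNA at 72 h (log2 fold change 0.06 by record and 0.24 by locus), RPPH1 in footprints at 6 h (0.44 and −0.05) and RNU12 in RNA at 2 weeks (0.36 and −0.16), none of them called.

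Compared per kilobase of gene, the RNA polymerase III products other than RNU6ATAC were the most abundant loci in total RNA at each time. The length used was that of the member's own record, while the counts were those of the summed locus. For RNU12 these are 150 bases, against 664 in Z93241.1, which held 381 of 933 locus counts in DMSO replicate 3 at 6 h. The level of RNU12 per kb in RNA, and its place in the order, may thus be too high. In DMSO at 6 h RN7SL2 averaged 161000 ± 35000 CPM per kb (SD, n = 3) and RN7SL1 145000 ± 28000, which overlapped, followed by RN7SK at 62710 ± 4329, RPPH1 at 46670 ± 7628 and RMRP at 9800 ± 2290, each above the next in every library. TERC (119.3 ± 10.62) and RNU12 (109.5 ± 11.85) overlapped. RNU11 followed at 85.46 ± 9.344, then RNU6ATAC at 29.55 ± 6.414 and RNU4ATAC at 25.01 ± 1.006, which overlapped. At 72 h RN7SL2, RN7SL1, RN7SK and RPPH1 each overlapped with the next of them, and TERC came last at 35.02 ± 8.487, overlapping with RNU4ATAC. In the named dmso libraries at 2 weeks RNU4ATAC was again last at 15.46 ± 6.904, below RNU6ATAC in every library.

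In total RNA no member passed the test at any time. The test was edgeR's quasi-likelihood test, with a call at a Benjamini-Hochberg adjusted p under 0.05. All 10 loci passed the filter on low counts in the 3 RNA tables. At 6 h 0 of 10 loci were called (0% of 22666 features), with 1 at an unadjusted p under 0.05 and 0 called by DESeq2. At 72 h 0 of 10 were called (0.00472% of 21191 features, 1 gene), with 0 under 0.05 unadjusted and 0 by DESeq2. At 2 weeks 0 of 10 were called (0% of 21133), with 2 under 0.05 unadjusted and 1 by DESeq2. Over all features 8.22%, 13.1% and 8.94% were under 0.05 unadjusted at the 3 times. DESeq2 called 0.909%, 2.85% and 0.927% of them. By record the share called over all features was 0%, 0.00472% and 0% of 22669, 21195 and 21137. Of the 9, 8 and 9 members that passed the filter by record, edgeR called 0, with 0, 0 and 2 under 0.05 unadjusted, and DESeq2 called 0, 0 and 2. Over all features by record 8.21%, 13.1% and 8.93% were under 0.05 unadjusted. The DESeq2 counts over all records are given in the closing section. The fitted log2 fold changes (actD minus DMSO) of the 10 loci ran from −0.54 to 0.09 at 6 h with a median of −0.05, against 0.02 over all features. They ran from −0.50 to 0.32 at 72 h with a median of 0.08, against 0.02, and from −0.49 to 0.37 at 2 weeks with a median of 0.08, against −0.02.

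Among the RNA processing enzymes, RMRP stood at 3147, 2668 and 1946 CPM with DMSO and 2344, 2069 and 3220 with actD at 6 h. The arms overlapped, with a log2 fold change of −0.02 (SE 0.23). At 72 h RMRP was at 2257, 2254 and 2053 CPM with DMSO and at 2728, 2647 and 1617 with actD, again overlapping. At 2 weeks it was at 3031, 3319 and 3108 CPM in the libraries named actd and at 3834, 4912 and 4538 in those named dmso. All 3 libraries named actd lay below all 3 named dmso, with a log2 fold change of −0.49 (SE 0.14) that missed the threshold in edgeR (adjusted p = 0.426). DESeq2 gave −0.48 with an adjusted p of 0.0499, and the adjusted p ranged up to 0.994 over the alternatives. With library totals, which moved the median of all features from −0.02 to −0.18, it was −0.64. By the titles of these libraries the same difference is 0.49, higher with actD.

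RPPH1 stood at 18386, 14740 and 13499 CPM with DMSO and 14326, 13203 and 21087 with actD at 6 h. At 72 h it was at 13668, 8386 and 10262 with DMSO and 14302, 10299 and 13445 with actD. At 2 weeks the libraries named actd held 15451, 17475 and 18574 and those named dmso 13393, 17025 and 16832. The arms overlapped at each time, with log2 fold changes of 0.06 (SE 0.22), 0.24 (SE 0.28) and 0.12 (SE 0.15). Of the 11 proteins of RNase P and RNase MRP on a list of them, all were tested in RNA and 0 were called at any time. POP1, the largest of these proteins, averaged 7.12 CPM with actD and 15.8 with DMSO at 72 h, overlapping (−1.15, SE 0.39, edgeR adjusted p = 0.313), and POP5, a small subunit, averaged 11.4 and 8.85 without overlap (0.36, SE 0.23, edgeR adjusted p = 0.525). Here and below, list genes named for RNA at 72 h are among the 2 of their list with the smallest p there. A lack of overlap in them at 72 h is thus partly due to that choice.

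RN7SK, the transcriptional brake, stood at 21518, 21248 and 18935 CPM with DMSO at 6 h and 19899, 20375 and 22034 with actD. The log2 fold change was 0.01 and its 95% interval ran from −0.33 to 0.36. At 72 h the locus held 11997, 14049 and 17442 CPM with DMSO and 20199, 19300 and 13584 with actD. The top 2 libraries were both of the actD arm but the third lay among the DMSO values (0.29, SE 0.28). At 2 weeks it held 26300, 28707 and 29549 in the libraries named actd and 22994, 24745 and 30544 in those named dmso. Of 7 genes of the 7SK particle and P-TEFb, all tested, 0 were called at any time. The list's median log2 fold change was 0.41 at 6 h, 0.18 at 72 h and −0.04 at 2 weeks, with 6, 5 and 3 of 7 fitted higher. HEXIM1, the protein with which 7SK RNA inhibits P-TEFb, ranged from 70.8 to 89.7 CPM with actD and from 40 to 62.8 with DMSO at 6 h, without overlap (0.58, SE 0.18, edgeR adjusted p = 0.498). At 72 h HEXIM1 averaged 75.3 and 59.2 CPM, also without overlap (0.35, edgeR adjusted p = 0.536), and HEXIM2, its relative, 2.44 and 1.5 (0.70, edgeR adjusted p = 0.471). At 2 weeks HEXIM1 averaged 49.9 CPM under the name actd and 37.1 under the name dmso, without overlap (0.43, SE 0.11, edgeR adjusted p = 0.414). By the titles of these libraries this difference is reversed, lower with actD. The naming rule selected HEXIM1 by its p at 72 h alone.

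RN7SL1 and RN7SL2 were the most abundant members. At 6 h RN7SL1 stood at 52352, 41918 and 35792 CPM with DMSO and 38165, 36049 and 52145 with actD, and RN7SL2 at 59722, 46090 and 39074 with DMSO and 39364, 40886 and 58573 with actD. In both genes DMSO replicate 1 and actD replicate 3 were the highest libraries, and the same 2 libraries were the highest for RPPH1 and RMRP. At 72 h RN7SL1 was at 24380, 8196 and 27831 CPM with DMSO and 20134, 17490 and 17929 with actD. The low DMSO value was replicate 2, in which the locus' counts had also been split between records. RN7SL2, at 98.3% identity, was at 16687 CPM in that library and at 21297 and 27650 in the other DMSO libraries, with 17869, 20479 and 16292 with actD. Without DMSO replicate 2, RN7SL1 gave a log2 fold change of −0.50 in place of −0.12 (edgeR adjusted p = 0.426), and without DMSO replicate 3 it gave 0.18. At 2 weeks both genes overlapped, between 30099 and 39394 CPM.

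Counts of the signal recognition particle RNA were spread over near-identical copies, so the values of RN7SL1 and RN7SL2 are uncertain. The 678 other genes named RN7SL held 853557 to 1409101 counts together at 6 h. RN7SL5P held 342060 to 599173 of them and RN7SL4P 387825 to 638941. For RN7SK, 293 copies held 73106 to 80842 counts in the 6 h libraries, and 148896 to 427251 in those of 72 h. The copies of RMRP (1 gene) were at 0 in every library, and those of RPPH1 (2 genes) at no more than 1 count. Of 8 proteins of the particle and its receptor, all tested in RNA, 0 were called at any time. At 72 h SRP14, which helps pause translation, averaged 195 CPM with actD and 117 with DMSO without overlap (0.73, SE 0.21, edgeR adjusted p = 0.274), and SRP54, which binds the signal peptide, 25.5 and 50.8, also without overlap and lower (−0.99, SE 0.35, edgeR adjusted p = 0.322).

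The minor spliceosome RNAs were scarce in total RNA. RNU11, which helps recognise the donor site, stood at 12.5, 11.8 and 10.1 CPM with DMSO and 9.86, 10.0 and 10.9 with actD at 6 h. At 72 h it stood at 8.73, 8.36 and 7.91 with DMSO and 11.5, 8.45 and 5.83 with actD, so that the actD libraries lay on both sides of the DMSO libraries. At 2 weeks it was at 12.3, 18.6 and 23.6 in the libraries named actd and 12.8, 15.5 and 17.97 in those named dmso. By locus the log2 fold changes were −0.16 (SE 0.14), 0.04 (SE 0.28) and 0.24 (SE 0.24). By its own record they were 1.31 (SE 1.16), −3.13 (SE 1.51) and −5.57 (SE 1.38), of which the last had an adjusted p of 0.399 in edgeR. The record was called at 2 weeks by DESeq2 (−5.56, adjusted p = 0.0181) and by edgeR without named dmso replicate 2 (−6.15, adjusted p = 0.00138), and at 6 h without DMSO replicate 2 (5.13, adjusted p = 0.00136). With the records summed, no alternative called RNU11.

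RNU12, which pairs with the branch site, stood at 18.1, 16.7 and 14.5 CPM with DMSO and 16.7, 13.5 and 16.5 with actD at 6 h. At 72 h it stood at 17.9, 26.6 and 15.5 with DMSO and 30.6, 28.0 and 16.2 with actD, and at 2 weeks between 18.3 and 34.4 in both groups. The log2 fold changes were −0.08 (SE 0.14), 0.32 (SE 0.32) and −0.16 (SE 0.22), each with overlapping arms. All these values include the counts of Z93241.1, which has 664 bases against 150. Part of them may thus come from outside RNU12, and how much was not tested. RNU12 by its own record failed the filter at 6 h and 72 h.

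RNU4ATAC, partner of RNU6ATAC in the minor tri-snRNP, ranged from 2.89 to 4.39 CPM at 6 h, from 2.7 to 6.95 at 72 h and from 0.96 to 3.05 at 2 weeks, with arms that overlapped each time. RNU6ATAC, the catalytic RNA, stood at 2.9, 3.75 and 4.52 CPM with DMSO and 2.98, 2.71 and 3.99 with actD at 6 h. At 72 h it was at 12.7, 7.96 and 10.7 with DMSO and 12.3, 5.49 and 4.29 with actD. The lowest 2 were actD libraries and the second highest of the 6 was also an actD library (−0.50, SE 0.42, edgeR adjusted p = 0.634). At 2 weeks 1 library named dmso held 16.8 CPM and the other 5 between 6.65 and 10.5. Of 13 minor spliceosome proteins, all tested in RNA, 0 were called, and 9, 11 and 10 were fitted higher at the 3 times with medians of 0.09, 0.19 and 0.09. CCDC84, a protein of the minor spliceosome list, averaged 48.5 CPM with actD and 25.1 with DMSO at 72 h, overlapping (0.95, SE 0.34, edgeR adjusted p = 0.322), and the arms of TXNL4B overlapped too (0.45, SE 0.25, edgeR adjusted p = 0.488).

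By summed locus TERC was the one member whose arms did not overlap in RNA at 6 h. It stood at 70.6, 59.1 and 63.9 CPM with DMSO and 43.9, 35.8 and 53.7 with actD. Each actD library lay below each DMSO library, with a log2 fold change of −0.54 (SE 0.16, 95% interval −0.91 to −0.17) that missed the threshold in edgeR (adjusted p = 0.484). The direction held in 12 of 12 alternatives, from −0.70 to −0.40, with an adjusted p between 0.196 and 0.975. Those that leave out 1 library could hardly reverse it, since the arms did not overlap. By its own record, which held 6 to 18 counts a library, it was −0.25 (SE 0.56, edgeR adjusted p = 0.9498) with overlapping arms, and −0.75 to 0.02 over the alternatives. TERC was 1 of 10 loci with the actD arm wholly lower at 6 h, against 8.17% of all 22666 features. At 72 h TERC stood at 21.6, 21.6 and 13.6 CPM with DMSO and 21.1, 23.4 and 17.5 with actD, overlapping (0.13, SE 0.25). The difference between the effects at 72 h and 6 h was 0.64 (SE 0.30, 95% interval −0.02 to 1.30) and was not called (edgeR adjusted p = 0.635). By record it was 6.35 (SE 2.11), not called either (edgeR adjusted p = 0.512). At 2 weeks TERC was at 39.4, 44.6 and 44.4 CPM in the libraries named actd and 50.9, 51.9 and 56.4 in those named dmso, without overlap (−0.31, SE 0.11, edgeR adjusted p = 0.507). By the titles this last difference is 0.31, and with library totals it is −0.46. RMRP and TERC were 2 of 10 loci with the named actd arm wholly lower at 2 weeks, against 7.82% of all 21133 features.

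Of 9 telomerase proteins, all tested in RNA, 0 were called at any time. At 6 h 5 were fitted higher and 4 lower (median 0.0022), at 72 h 1 higher and 8 lower (median −0.30), and at 2 weeks 4 higher and 5 lower (median −0.0060). PARN, a deadenylase that trims the tail of immature TERC, averaged 15.3 ± 1.96 CPM with actD and 31.5 ± 2.87 with DMSO at 72 h, without overlap (−1.04, SE 0.20, edgeR adjusted p = 0.197). DESeq2 called PARN at 72 h. SHQ1, an assembly factor of the dyskerin particle, averaged 6.58 and 9.02 CPM and overlapped (−0.45, SE 0.25, edgeR adjusted p = 0.486). TERT, the catalytic subunit, named after its values were seen, ranged from 0.187 to 1.05 CPM with actD and 1.69 to 2.48 with DMSO at 6 h (−1.54, SE 0.53, edgeR adjusted p = 0.556).

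**Figure D2:**
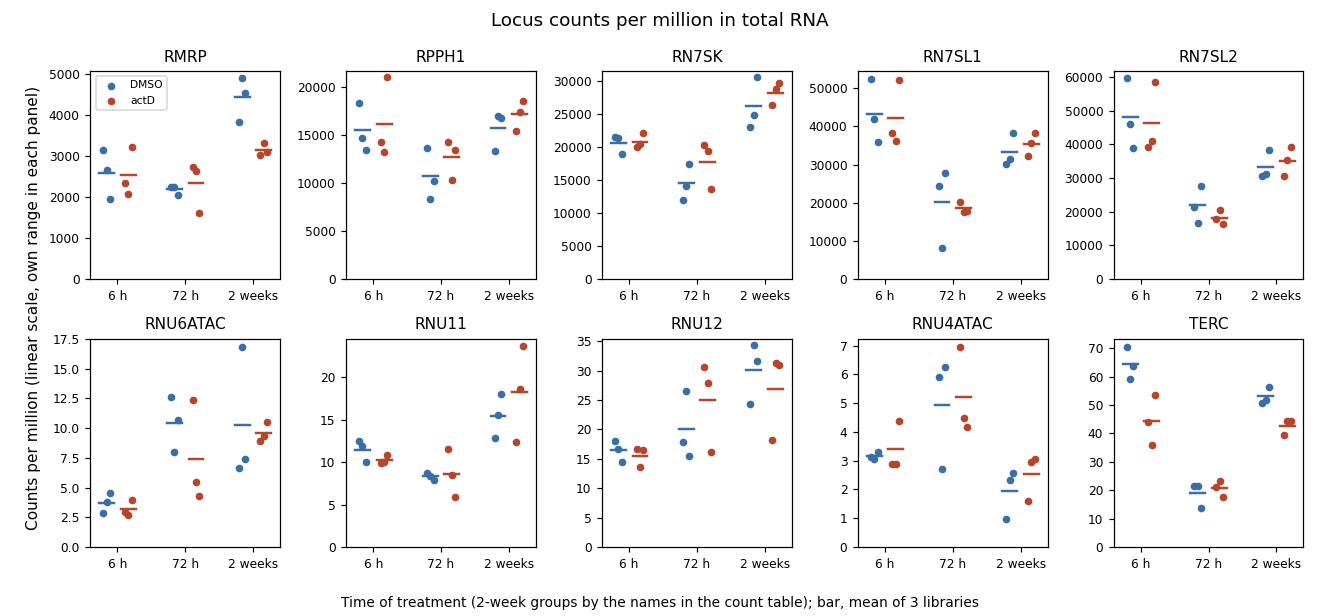
CPM of the 10 summed loci in total RNA (y axis, linear, own range in each panel) by time of treatment (x axis), with 1 point per library and a bar at the mean of 3 libraries, DMSO blue and actD red. The 3 actD points of TERC at 6 h, 35.8 to 53.7, lie below the 3 DMSO points, 59.1 to 70.6, and DMSO replicate 2 of RN7SL1 at 72 h lies alone at 8196.

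**Figure D3:**
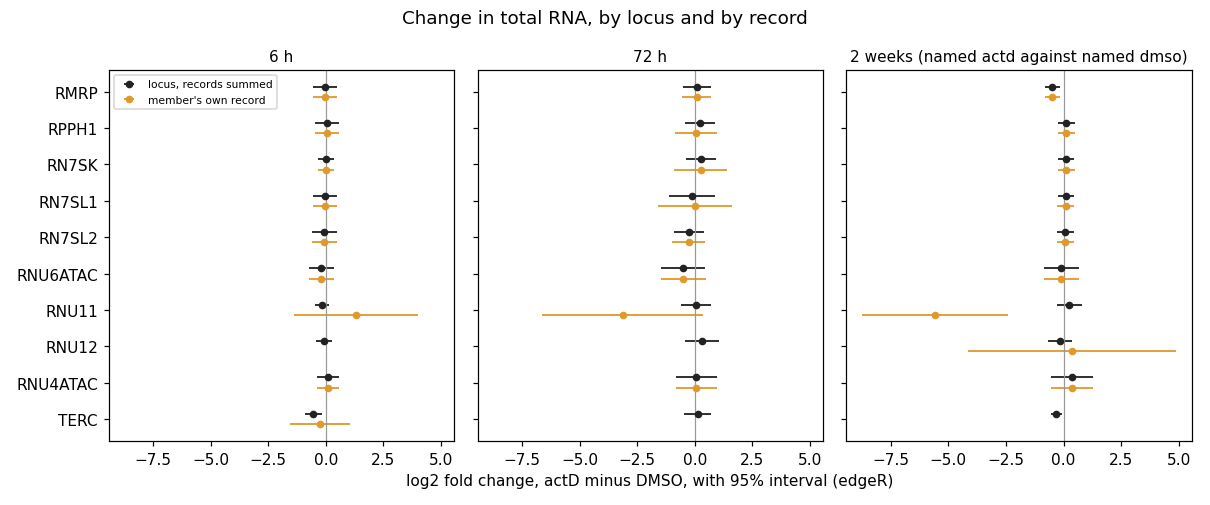
Log2 fold change (x axis, actD minus DMSO, edgeR, with its 95% interval) of each member (y axis) in total RNA at 3 times, for the summed locus in black and the gene's own record in orange. RNU11 moves from −5.57 by record to 0.24 by locus at 2 weeks, and RNU12 at 6 h and 72 h and TERC at 72 h and 2 weeks have no orange point because the record failed the filter on low counts.

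Genes of shared synthesis were examined by lists too. Of 28 subunits and factors of RNA polymerase III, all tested in RNA, 0 were called at any time, and 19, 17 and 18 were fitted lower at the 3 times, with medians of −0.07, −0.08 and −0.11. At 72 h GTF3C3, a subunit of the factor that binds internal promoters, averaged 25.6 CPM with actD and 46.1 with DMSO without overlap (−0.85, SE 0.23, edgeR adjusted p = 0.266). Of 15 other small RNAs made by that polymerase 12 were tested and 0 called. RNU6-8, a gene of U6 RNA, averaged 0.177 CPM with actD and 0.317 with DMSO at 72 h, and RNY4, a Y RNA, 0.19 and 0.393. Of 16 major spliceosome and U7 RNAs 14 were tested and 0 called. RNU5F-1, a U5 gene, averaged 8.03 and 4.25 CPM with actD and DMSO (edgeR adjusted p = 0.396) and RNU4-2, a U4 gene, 116 and 151 (edgeR adjusted p = 0.651) at 72 h. Of 14 subunits of Integrator, which cuts the ends of RNA polymerase II spliceosomal RNA precursors, 14 were tested and 0 called, and INTS9 averaged 6.31 CPM with actD and 10.9 with DMSO (−0.79, edgeR adjusted p = 0.297) and INTS4 14.5 and 20.4 (−0.49, edgeR adjusted p = 0.388). In all, edgeR called 0 of 116 list genes in either direction in each RNA comparison, with 16, 12 and 18 under 0.05 unadjusted (13.8%, 10.3% and 15.5% of the list, against 8.22%, 13.1% and 8.94% of all features). DESeq2 called 1 at 6 h (BRF1), 2 at 72 h (among them PARN) and 2 at 2 weeks (INTS1 and INTS3), and BRF1, INTS1 and INTS3 are named after their values were seen. Over all features DESeq2 called 0.909%, 2.85% and 0.927%. In footprints 24, 24 and 26 list genes were tested and edgeR called 0, with 1, 4 and 5 under 0.05 unadjusted (4.17%, 16.7% and 19.2%, against 3.06%, 27.4% and 9.02% of all features), while DESeq2 called 0, 1 (SRPRA, a subunit of the receptor of the signal recognition particle) and 0, against 0.992%, 4.49% and 0% of all features.

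Likeness over the 18 RNA libraries was measured as Pearson's r of log2(CPM + 1) centred within each table, against 19393 other genes. These values are descriptions, since libraries share depth and composition. RNU11 was most like RF00003, a record of U1 RNA (r = 0.879), TTL (0.861) and a second RF00003 record (0.809). RNU6ATAC was most like RNY3P1 (0.865), a Y RNA copy, RNU4-2 (0.84), a U4 gene, and RF00019 (0.828), a Y RNA record. RN7SL2 was most like its own copy RN7SL5P (0.917), while RN7SL1 was most like PRXL2C (0.924). TERC was most like DNAJA4 (0.86), RPPH1 like ATP5F1E (0.912), RN7SK like CCDC43 (0.913), RMRP like SETD8P1 (0.852), RNU12 like EGFL7 (0.893) and RNU4ATAC like DESI2 (0.892). Among members the highest values were 0.734 for RNU4ATAC with RN7SL1 and 0.726 for RN7SL2 with RN7SL1, and the lowest was −0.219 for RNU12 with RN7SL1.

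The footprint libraries, made with a small RNA kit and meant to hold fragments that ribosomes protect, held these noncoding RNAs too, in another order. Most counts in each of these libraries were not of protein-coding genes, whose share ranged from 2.12% to 40.4%. Genes typed snRNA made up between 6.18% and 64.8%, and microRNA genes between 1.18% and 71.4%. A footprint value of a member is thus its count in such a library, and whether ribosomes protected that RNA was not tested. By the means in DMSO RNU12 was first at each time, and with actD at 72 h RNU11 (98260 CPM per kb) and RNU12 (94080) overlapped, with RNU11 first. In DMSO at 6 h it averaged 114200 ± 11220 CPM per kb (SD, n = 3), followed by RPPH1 at 23990 ± 17140, RNU11 at 5461 ± 1013 and RMRP at 489.3 ± 210, each above the next in every library. RN7SL2 and RN7SL1, the most abundant in RNA, averaged 114.3 ± 68.53 and 103.7 ± 55.18 and overlapped with each other and with RNU4ATAC at 138.6 ± 78.57. At 72 h RNU12 (62890 ± 15050) overlapped with RNU11 (50880 ± 46380), and at 2 weeks RNU12 stood at 283100 ± 88460, above RPPH1 at 10700 ± 3405. RNU11 and RNU12 together were 0.00225% to 0.00528% of the counts of any RNA library and 1.22% to 4.96% of those of any footprint library. The 4 loci RN7SL1, RN7SL2, RN7SK and RPPH1 made up 4.97% to 14.2% of RNA libraries and 0.0238% to 2.97% of footprint libraries. Among the list's noncoding RNAs the highest in DMSO footprints were RNU2-2P, a U2 gene (2024 to 77220 CPM), and RNU1-4, a U1 gene (112 to 4903 CPM).

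**Figure D4:**
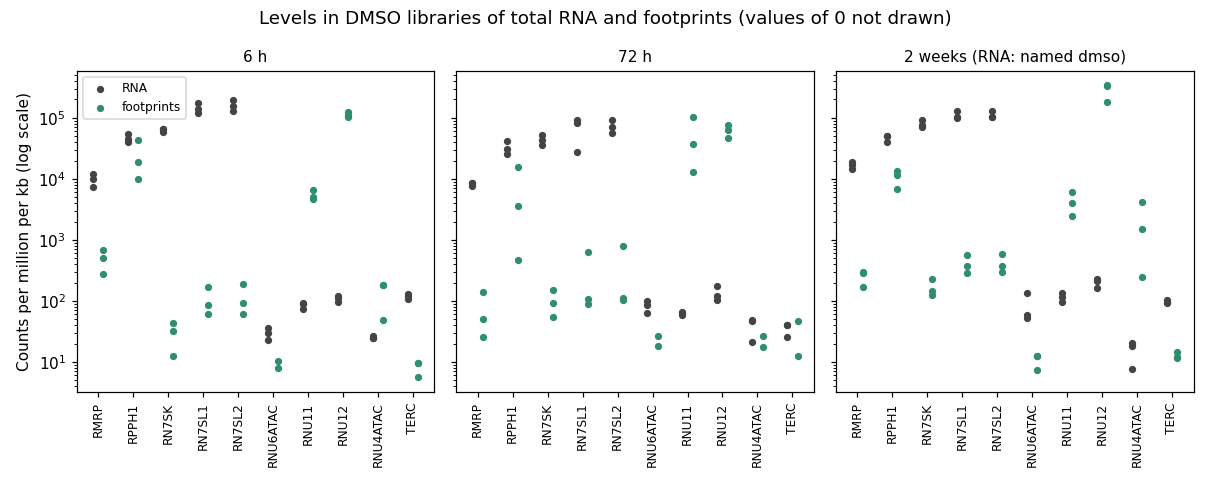
CPM of the 10 summed loci (x axis) per kb of the member's own record (y axis, log scale), with 1 point per library and values of 0 not drawn. DMSO libraries of total RNA (dark) and footprints (green) are shown at 3 times. RNU12 lies between 96.9 and 229 in RNA and at or above 47510 in footprints, while RN7SL1 and RN7SL2 lie at or above 27410 in RNA and at or below 791 in footprints.

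In footprints no member passed the test either. At 6 h 0 of 6 loci tested were called (0% of 1210 features), with 1 at an unadjusted p under 0.05 and 1 by DESeq2. At 72 h 0 of 6 were called (3.83% of 2426 features), and at 2 weeks 0 of 8 (0% of 1596), with 0 under 0.05 unadjusted and 0 by DESeq2 in both. Over all features 3.06%, 27.4% and 9.02% were under 0.05 unadjusted at 6 h, 72 h and 2 weeks. DESeq2 called 0.992%, 4.49% and 0% of them. By record 0%, 3.79% and 0% of 1212, 2426 and 1598 features were called. By record edgeR called 0 of the 6, 5 and 7 members tested, with 1, 0 and 1 under 0.05 unadjusted, and DESeq2 called 1, 0 and 0. Over all features by record 3.14%, 27.3% and 8.57% were under 0.05 unadjusted. RN7SK, RNU6ATAC, RNU4ATAC and TERC failed the filter at 6 h, RMRP, RNU6ATAC, RNU4ATAC and TERC at 72 h, and RNU6ATAC and TERC at 2 weeks.

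RMRP footprints were higher in each actD library at 6 h, at 698, 424 and 411 CPM against 71.9, 133 and 183 with DMSO. The log2 fold change was 1.98 (SE 0.69, 95% interval 0.33 to 3.64), which missed the threshold in edgeR (adjusted p = 0.890) and passed it in DESeq2 (2.03, adjusted p = 0.0219). The direction held in 12 of 12 alternatives, from 1.34 with library totals to 2.33, with an adjusted p up to 0.9998. Those that leave out 1 library could hardly reverse it, since the arms did not overlap. RMRP rested on 62 to 92 counts per DMSO library and 146 to 306 per actD library under its main record. The actD library with the highest CPM, replicate 1, also had the largest share of microRNA counts, 71.4%, against 4.67% to 60.8% in the other 5. The part of that share in the result was not tested. Its TMM factor was 0.384, against 0.840 to 2.264 in the other 5. As a share of all counts it was not the highest, at 339 of 1281039 against 186 of 363273 in actD replicate 3. Without actD replicate 1 the log2 fold change was 1.66. At 72 h the RMRP locus had 3 to 26 counts a library, and at 2 weeks it stood at 45.4, 78.7 and 75.8 CPM with DMSO and 45.7, 72.7 and 78.7 with actD. The effect at 72 h minus that at 6 h was −1.54 (SE 0.97, edgeR adjusted p = 0.782), not called.

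RNU11 footprints stood at 686, 625 and 885 CPM with DMSO and 1657, 1224 and 1220 with actD at 6 h. The arms did not overlap, but the log2 fold change of 0.90 (SE 0.71) had an interval that held 0 and an edgeR adjusted p of 0.890, and it was 0.15 with library totals. That scaling moved the median of all features from 0.11 to −0.58. By TMM-scaled CPM, RMRP and RNU11 were 2 of 6 tested loci wholly higher with actD at 6 h, against 3.64% of 1210 features. As a share of all counts the RNU11 arms overlapped, with 677 of 478098 in DMSO replicate 1 and 805 of 1281039 in actD replicate 1. At 72 h RNU11 was at 4965, 1739 and 13747 CPM with DMSO and 11748, 8715 and 19037 with actD, overlapping (0.95, SE 0.79, edgeR adjusted p = 0.459). Without DMSO replicate 3 this was 2.01, still not called (edgeR adjusted p = 0.134). At 2 weeks it ranged from 319 to 808 CPM in both arms.

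RNU12 footprints stood at 18978, 16709 and 15690 CPM with DMSO and 32268, 21824 and 13144 with actD at 6 h, and at 7127, 9537 and 11637 against 14115, 21951 and 6271 at 72 h. By these TMM-scaled values, 2 actD libraries at both times lay above all DMSO libraries and actD replicate 3 lay below them (0.39, SE 0.77, and 0.58, SE 0.61). As a share of all counts at 6 h, DMSO replicate 1 (18731 of 478098) stood above actD replicate 1 (15675 of 1281039). The 6 h fold change ranged from −0.61 to 0.57 over 12 alternatives, of which 11 kept its direction. At 2 weeks RNU12 was at 27197, 49078 and 51142 with DMSO and 39264, 40274 and 39628 with actD (−0.10, SE 0.32). RPPH1 varied widely within arms, at 14346, 6322 and 3303 CPM with DMSO and 6217, 4066 and 12947 with actD at 6 h, and from 156 to 6801 at 72 h. RNU4ATAC had 0 to 19 counts a library at 6 h and 72 h. At 2 weeks it stood at 31.3, 194 and 526 CPM with DMSO and 53.7, 91.4 and 137 with actD (−1.41, SE 0.87, edgeR adjusted p = 0.610). Its 17 copies held 100 to 1691 counts there, so its value is uncertain. RNU6ATAC was listed at 0 or 1 count in each of the 18 footprint libraries.

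For RN7SL1 and RN7SL2 footprints at 2 weeks, the fits by record and by locus gave different overlaps. By record RN7SL1 lay at 80.5, 61.2 and 122 CPM with DMSO and 131, 209 and 229 with actD, without overlap (1.11, SE 0.42, edgeR adjusted p = 0.562). RN7SL2 by record was also wholly higher with actD (0.85, edgeR adjusted p = 0.562), and 8.32% of 1598 features were. By locus RN7SL1 was at 84.2 to 169 CPM with DMSO and 164, 203 and 259 with actD, and RN7SL2 at 113, 88.7 and 173 against 172, 203 and 260. The arms then overlapped (0.78, SE 0.40, and 0.76, SE 0.40, edgeR adjusted p = 0.602 for both). RN7SL2 has 1 record, with the same counts by record and by locus, so for it only the scaling of the libraries differed. In footprints at 6 h and 72 h RN7SL3, RN7SL5P and RN7SL2 had like counts in each library, such as 26, 24 and 27 in DMSO replicate 1 at 6 h. The near-identical RN7SL1 and RN7SL2 are therefore not independent. At 2 weeks RN7SL2 held more counts than RN7SL3 and RN7SL5P in each library, such as 72 against 33 and 32 in DMSO replicate 1. RN7SK footprints at 2 weeks stood at 40.7, 47.6 and 74.3 CPM with DMSO and 5.72, 6.61 and 69.2 with actD, with 2 of 3 actD libraries below all DMSO libraries (−1.02, SE 0.88, edgeR adjusted p = 0.723). TERC had 0 to 15 counts in any footprint library, and a count of 0 allows up to 3.

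**Figure D5:**
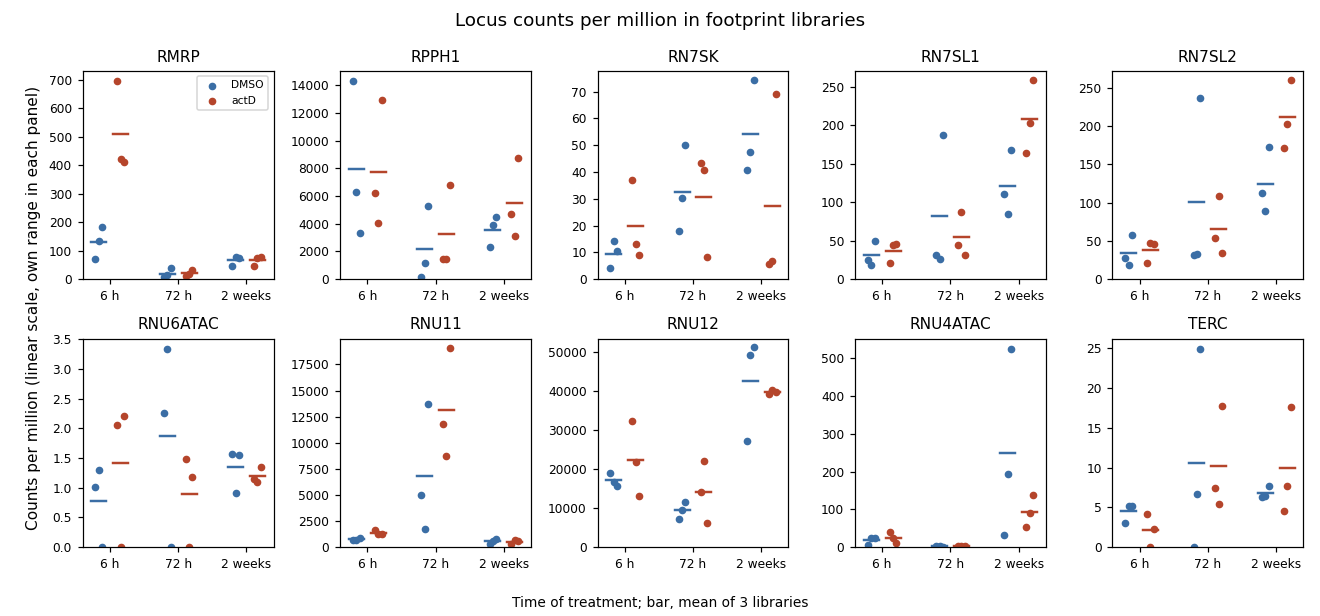
CPM of the 10 summed loci in the footprint libraries (y axis, linear, own range in each panel) by time of treatment (x axis), with 1 point per library and a bar at the mean of 3 libraries, DMSO blue and actD red. RMRP at 6 h shows 3 actD points from 411 to 698 above the DMSO points at 71.9 to 183, and most other panels show overlapping arms.

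Differences of the effect between times were tested in a joint fit of both times. In RNA, 72 h minus 6 h, edgeR called 0 of 10 loci (0.0165% of 24244 features). In footprints 0 of 7 loci were called for 72 h minus 6 h (0% of 3009) and 0 of 8 for 2 weeks minus 72 h (0.0532% of 3758). In each of these, 0 loci were under 0.05 unadjusted and DESeq2 called 0. Both comparisons with 72 h share the libraries of that time. The largest fitted difference in RNA was that of TERC given above, and for the other 9 loci it lay between −0.32 and 0.37.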

How the data were processed

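Total RNA and ribosome footprints of WiT49 cells were measured in 36 libraries. One file per assay and time point was deposited by the authors, with values taken here as estimated counts (expected counts) per gene, since no counting program is tied to them. HISAT2, StringTie and the build hg38 are named per the submitters' processing notes, with no version. The use of strand and of reads that map to several places is not given in the sources used here. The RNA kits are stranded and 2 extraction kits and 2 RNA library kits are named per the labels' protocols, without saying which library used which, so such a batch could not be examined. In the RNA tables of 6 h and of 2 weeks small values pile up at multiples above a single count, so a count there may not be 1 fragment.

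All 36 value columns were matched to samples by the library name in the description, and values were already whole, so rounding changed nothing. Of the identifiers 94.6% (RNA) and 93.5% (footprints) matched GENCODE release 29 with their version. Each table was fitted alone with edgeR 4.0.16 in R 4.3.3 (TMM, filterByExpr, glmQLFit, glmQLFTest, two-sided, Benjamini-Hochberg over all features, call at adjusted p under 0.05). The functions were tested on simulated data. Records on the same strand whose exons cover at least 50% of a member were summed to a locus. Alternatives were DESeq2 1.42.0, library totals, protein-coding scaling, no filter, a replicate block, 1 fit over 3 times, grouping the 2-week RNA libraries by title, leaving out each library, and, chosen after seeing the data, the summed loci. The members and gene lists were chosen with earlier results of these data known. All members are named. From each list the called genes, or where none was called the 2 with the smallest p in RNA at 72 h, are named, with the 2 noncoding list genes highest in footprints and the 3 genes most like each member. Some items that this rule selects are not reported here. With 3 libraries against 3, an exact permutation test cannot go below 0.1, so none was used.

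Replicate numbers were not taken to pair the libraries, because in no comparison did all 3 correlations of same-numbered deviations exceed 0.1. In RNA at 72 h they were 0.0977, 0.262 and 0.173, so pairing was not settled there. The replicate block among the alternatives allows for it. Floors cover counting error only, and the 95% intervals come from the edgeR fits and include the spread between libraries. Promoters of the members were not used here.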

Additional observations from a re-analysis of the deposited data

How the results depend on the processing

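The summed loci were called in no comparison except by DESeq2, which called 1 at RNA 2 weeks and 1 at footprints 6 h (RMRP both times). Of 600 alternative values of single loci, 532 kept the direction of the main value, 68 took the opposite one and 2 were called, with the grouping of the 2-week RNA libraries by title not among them. By record DESeq2 called 2 members at RNA 2 weeks, 1 at footprints 6 h and 1 for the footprint effect 72 h minus 6 h, the fit without a filter called 1 at footprints 72 h and 1 at footprints 2 weeks, and 1 fit over 3 times called 1 at RNA 72 h. Leaving out 1 library called 0 to 1 member record at RNA 6 h and at RNA 2 weeks, RNU11 both times. Over all records, DESeq2 called 204 at RNA 6 h, 605 at RNA 72 h, 197 at RNA 2 weeks and 12 at footprints 6 h, where edgeR called 0, 1, 0 and 0, and 158, 6 and 11 for the 3 differences between times, where edgeR called 4, 0 and 2. One fit over 3 times called 1 at RNA 6 h, 1212 at RNA 72 h and 1 at footprints 6 h. Library totals called 6 at RNA 2 weeks and 7, not 92, at footprints 72 h. Without a filter 1 was called at RNA 2 weeks, 16 at footprints 6 h, 321 at footprints 72 h and 11 at footprints 2 weeks. With the replicate block 0 were called at RNA 72 h, at footprints 72 h and for the differences RNA 72 h minus 6 h and footprints 2 weeks minus 72 h, no member was called, and TERC at RNA 6 h had a log2 fold change of −0.55. Leaving out 1 library gave 0 to 6 at RNA 6 h, 0 to 3 at RNA 72 h, 2 to 10 at RNA 2 weeks, 0 to 282 at footprints 72 h (282 without actD replicate 3, 55 without DMSO replicate 3, 0 without any of the other 4), 1 to 38 for RNA 72 h minus 6 h and 0 to 7 for footprints 2 weeks minus 72 h. The cause of these differences was not tested. Grouping the 2-week RNA libraries by title reverses the sign of every member's value there. Footprint depth, 152556 to 1281039 counts, leaves TERC and RNU6ATAC untested in all 3 footprint tables.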
